A study of Bos taurus with 15 samples.

Results

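The genes described here are 8 genes of hypoblast formation and fibroblast growth factor (FGF) signalling in day 7 bovine blastocysts: FGF4, FGFR1, FGFR2, GATA6, PDGFRA, SOX17, GATA4 and HNF4A. They were taken by symbol from a table of 17259 genes, and all 8 were present. Messenger RNA was sequenced from 15 libraries of Bos taurus blastocysts in 3 groups of 5. In the automatic group, cumulus cells had been stripped from zygotes by an automated procedure and the zygotes cultured in SOF medium to day 7. In the manual group they had been stripped by hand before the same culture. The in vivo group was collected as day 7 blastocysts. The in vitro groups thus share the culture, and the labels name no genotype, strain or donor for any group. The design text gives 5 blastocysts per group, and the labels leave unstated whether a library is 1 blastocyst or a pool and whether replicates stem from separate cultures or collections. P-values here thus reflect library-to-library spread alone, part or all of which could be technical.

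The hypoblast is the layer of the inner cell mass that faces the blastocyst cavity and later lines the yolk sac; the remaining inner cells form the epiblast. In the mouse, epiblast precursors release FGF4, which acts through FGFR1 and FGFR2 and the kinase ERK on neighbouring cells and favours the transcription factor GATA6 over NANOG. PDGFRA, SOX17 and GATA4 then mark the forming hypoblast, and HNF4A belongs to its endodermal derivatives. In cattle, added FGF4 with heparin enlarges the hypoblast of cultured blastocysts.

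Libraries held 17.96 to 41.97 M counts (1 M is 1e6), with a median of 27.6 M. Fewer genes reached 10 counts in 5 libraries (6977 to 8547 genes) than in the remaining 10 (9900 to 12611 genes). The 5, called low-detection libraries, are numbers 2 and 4 of the automatic group, number 2 of the manual group and numbers 2 and 4 of the in vivo group. The labels call the cell type blastomera. KRT8 and KRT18, keratins of the trophectoderm, had counts in all 15 libraries. Levels are given as CPM (counts per 1e6 counts of the library total) after scaling by TMM factors, which correct for differences in RNA composition. CPM is not corrected for transcript length, so levels are compared between groups and not between genes. In whole blastocysts, fewer cells of a type and less RNA per cell cannot be told apart.

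The ligand was at the edge of detection. FGF4 had 6 counts in in vivo 3, a level of 0.123 CPM, and 0 counts in the other 14 libraries. In those 14 libraries a count of 0 allows a level of up to 0.0679 to 0.229 CPM, the level of 3 counts, which covers counting error only. FGF4 did not pass the filter on low counts. Its mean was 0 CPM in vitro and 0.0245 CPM in vivo (exact two-sided permutation p = 0.667). With counts in in vivo 3 alone, this p-value is set by the group sizes whatever the level there, so it decides nothing. Whether FGF4 was lower in the in vitro groups could not be judged at this depth.

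FGFR1, a receptor through which FGF4 signals, was low in every group. It lay at 1.44, 2.76, 2.78, 3.31 and 1.37 CPM in the automatic libraries (numbers 1 to 5 in order, as in all such series). In the manual libraries it lay at 2.09, 0, 0.0632, 0.126 and 1.79 CPM. In the in vivo libraries it lay at 0.136, 0, 3.72, 12.2 and 0.11 CPM. All automatic libraries were above 1 CPM, while 3 manual and 3 in vivo libraries were at 0.136 CPM or less, and the 3 groups overlapped. Mean levels were 2.33 ± 0.877 CPM in automatic, 0.813 ± 1.03 CPM in manual and 3.22 ± 5.23 CPM in in vivo libraries (SD, n = 5 each). The in vivo mean rested on in vivo 4, a low-detection library with 266 counts.

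FGFR2, the other receptor of the pair, differed between libraries of low and of higher detection in every group. It lay at 9.55, 0, 6.79, 0 and 2.96 CPM in automatic libraries. In manual libraries it lay at 7.98, 0, 44.5, 8.26 and 3.47 CPM. In in vivo libraries it lay at 7.08, 0, 18.5, 0.137 and 23.3 CPM. Of the 5 low-detection libraries, 4 had 0 counts and in vivo 4 had 3 counts, whereas each of the other 10 reached at least 2.96 CPM. Mean levels were 3.86 ± 4.23 CPM in automatic, 12.8 ± 18.02 CPM in manual and 9.80 ± 10.7 CPM in in vivo libraries (SD, n = 5 each).

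The balance of both receptors within a library was compared as the log2 ratio of FGFR2 to FGFR1 counts after adding 0.5 to each. Since transcript lengths differ, only differences in this ratio between libraries can be read. The ratio was -1.79 ± 4.83 in automatic libraries, 3.58 ± 3.83 in manual libraries and 1.83 ± 5.37 in in vivo libraries (SD, n = 5 each). In libraries with counts of both receptors it ran from 1.10 to 2.72 in the automatic group, from 0.95 to 9.14 in the manual group and from -6.25 to 7.51 in the in vivo group. Automatic 2 and automatic 4, at -7.16 and -6.92, held FGFR1 counts with none of FGFR2. Manual 2 and in vivo 2 had 0 counts of both receptors, so their ratio of 0 comes from the added 0.5 alone. The difference of automatic from manual libraries was -5.37 and did not pass (exact two-sided permutation p = 0.135, adjusted p = 0.540 over 4 comparisons). The differences were -3.63 for automatic against in vivo, 1.75 for manual against in vivo and -0.94 for in vitro against in vivo, with exact permutation p-values of 0.302, 0.579 and 0.758. Without the low-detection libraries, automatic against manual was -2.77 (exact two-sided permutation p = 0.4). Automatic against in vivo was then -3.43 and in vitro against in vivo -1.85, and manual against in vivo turned to -0.67.

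GATA6, the early hypoblast factor, was measured with counts in all 15 libraries. It lay at 49.9, 213, 197, 633.5 and 186 CPM in automatic libraries. In manual libraries it lay at 70.0, 167, 146, 269 and 252 CPM. In in vivo libraries it lay at 110.03, 473, 152, 221 and 172 CPM. The lowest library, automatic 1, and the highest, automatic 4, belonged to the same group, and the groups overlapped over most of their ranges. Mean levels were 256 ± 221 CPM in automatic, 181 ± 81.6 CPM in manual and 226 ± 144 CPM in in vivo libraries (SD, n = 5 each). In vitro against in vivo, GATA6 differed by log2 -0.07 ± 0.48 (SE), with a 95% interval of 0.474-fold to 1.92-fold. Scaling to library totals without TMM gave 0.24, and the median over all genes was then 0.10 in place of -0.04.

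PDGFRA, a receptor tyrosine kinase for platelet-derived growth factor and a surface marker of the hypoblast, was also present throughout. It lay at 174, 86.6, 133, 44.1 and 94.7 CPM in automatic libraries. In manual libraries it lay at 88.5, 127, 112, 69.6 and 75.3 CPM. In in vivo libraries it lay at 69.3, 9.17, 138, 110.4 and 51.6 CPM. In vivo 2, a low-detection library, stood below all other libraries, and the remaining in vivo levels fell within the range of the in vitro ones. Mean levels were 106 ± 49.1 CPM in automatic, 94.4 ± 24.5 CPM in manual and 75.6 ± 50.2 CPM in in vivo libraries (SD, n = 5 each). The difference of in vitro from in vivo was log2 0.41 ± 0.50 (SE), with a 95% interval of 0.639-fold to 2.75-fold.

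SOX17, an endoderm transcription factor that in the mouse follows GATA6, was found in 4 libraries. It had 9 counts in automatic 3, 2 counts in manual 3, 27 counts in in vivo 1 and 32 counts in in vivo 3, and 0 counts in the other 11 libraries. The corresponding levels were 0.217, 0.0632, 0.611 and 0.654 CPM. The gene did not pass the filter, and its mean level was 0.0281 CPM over in vitro and 0.253 CPM over in vivo libraries (exact two-sided permutation p = 0.190). For automatic against manual, automatic against in vivo and manual against in vivo the exact p-values were 1, 0.444 and 0.444. With counts in so few libraries, these pairwise tests could not have reached a p under 0.05, so they decide nothing. None of the 5 low-detection libraries held a SOX17 count.

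GATA4, a later hypoblast factor, was low but found in 11 libraries. It had 3, 0, 58, 6 and 0 counts in automatic libraries, which is 0.0937, 0, 1.40, 0.331 and 0 CPM. It had 24, 0, 16, 26 and 14 counts in manual libraries, which is 0.736, 0, 0.505, 0.816 and 0.74 CPM. It had 66, 0, 77, 5 and 3 counts in in vivo libraries, which is 1.49, 0, 1.57, 0.228 and 0.11 CPM. A level above 1 CPM was reached in automatic 3, in vivo 1 and in vivo 3, 3 of the 4 libraries in which SOX17 was found. Mean levels were 0.365 ± 0.595 CPM in automatic, 0.559 ± 0.333 CPM in manual and 0.681 ± 0.783 CPM in in vivo libraries (SD, n = 5 each).

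HNF4A, a nuclear receptor of the visceral endoderm and its derivatives, varied widely within groups. It lay at 8.46, 38.0, 8.43, 0 and 7.98 CPM in automatic libraries. In manual libraries it lay at 7.82, 1.45, 6.0, 1.63 and 0 CPM. In in vivo libraries it lay at 37.3, 0.229, 33.7, 0.640 and 8.61 CPM. The high libraries were automatic 2, in vivo 1 and in vivo 3, the highest manual library had 7.82 CPM, and the groups overlapped. Mean levels were 12.6 ± 14.7 CPM in automatic, 3.38 ± 3.35 CPM in manual and 16.1 ± 18.1 CPM in in vivo libraries (SD, n = 5 each).

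**Figure D1:**
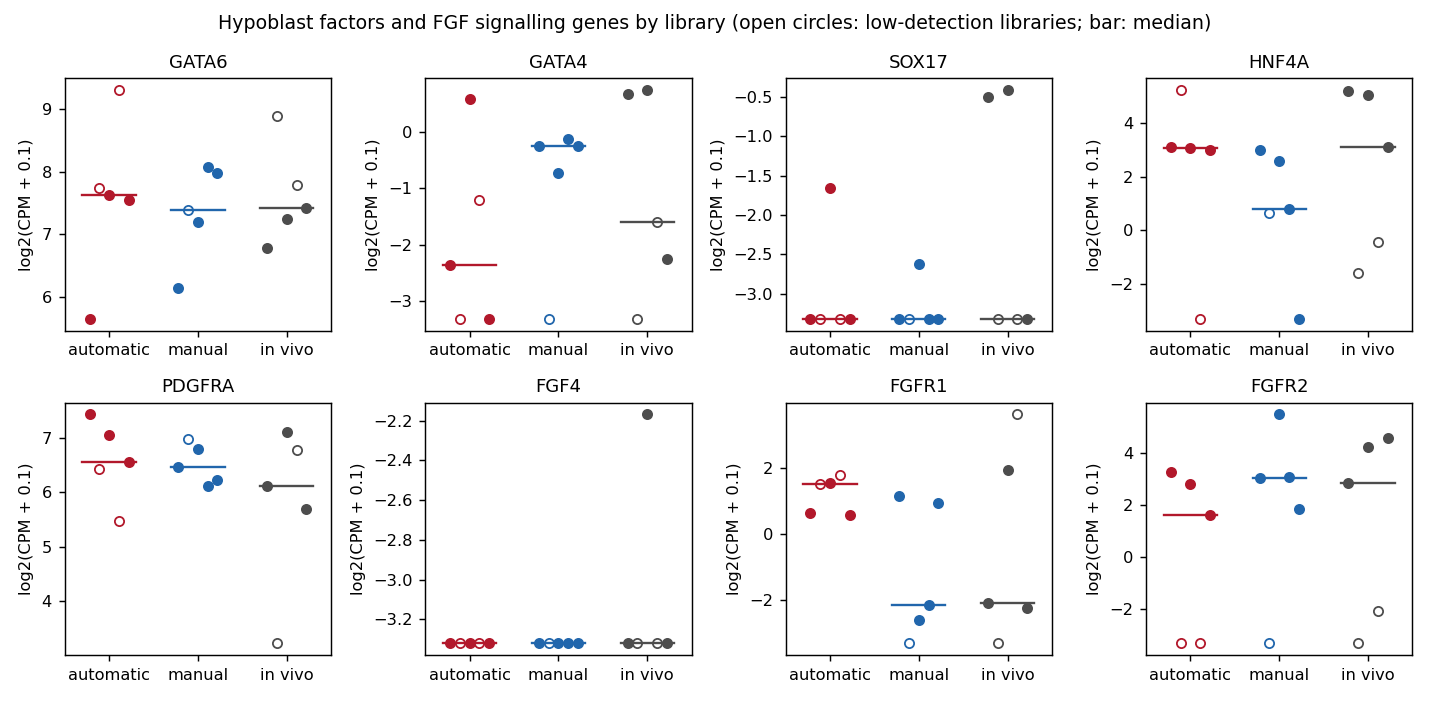
Level of each of the 8 genes in every library, as log2(CPM + 0.1), with automatic, manual and in vivo libraries from left to right. Each circle is a library, open circles are the 5 low-detection libraries and the bar is the group median. FGF4 stands above 0 counts in in vivo 3 alone, and FGFR2 is at 0 or at 3 counts in the open circles.

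The levels of several of these genes moved with the number of genes detected in a library, as described by correlations over log2 CPM that share library and depth. Over all 15 libraries Pearson r with the number of genes at 10 or more counts was 0.86 for FGFR2, 0.63 for GATA4, 0.57 for PDGFRA, 0.56 for HNF4A, 0.53 for SOX17, 0.13 for FGFR1 and -0.68 for GATA6. GATA6 was thus the gene with a negative value. Over the 10 libraries of higher detection, r was 0.0047 for FGFR2, 0.66 for PDGFRA and FGFR1, 0.53 for HNF4A, 0.51 for SOX17, 0.43 for GATA4 and -0.36 for GATA6. Low-detection libraries occur in each group, 2 in automatic, 1 in manual and 2 in in vivo, and their part in the spread of these genes was not tested further than by leaving them out.

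**Figure D2:**
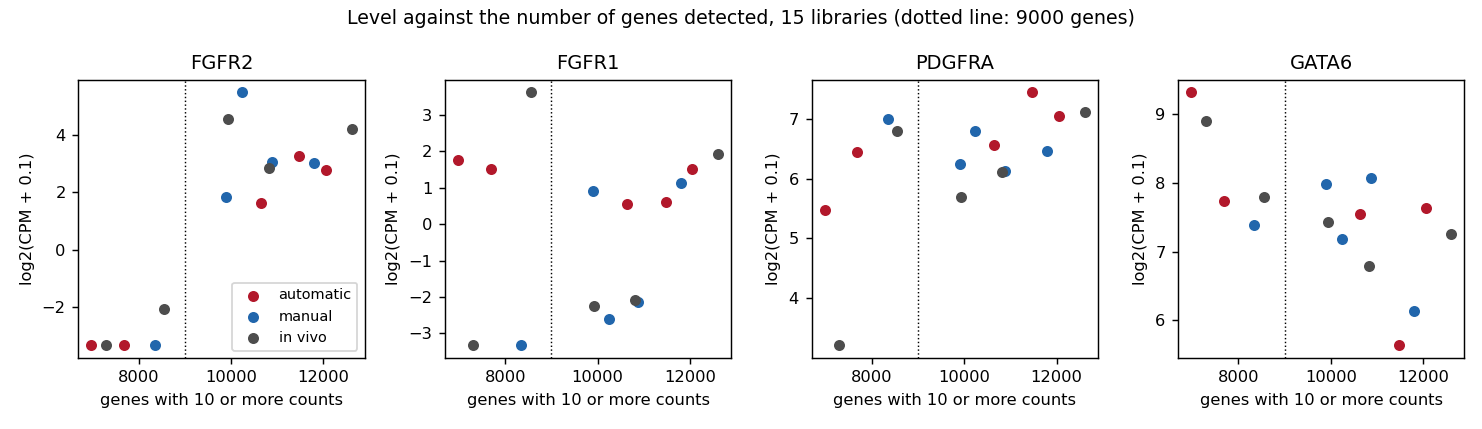
Level of FGFR2, FGFR1, PDGFRA and GATA6 as log2(CPM + 0.1) against the number of genes with 10 or more counts, 1 point per library, coloured by group. The dotted line marks 9000 genes, the limit below which a library is called low-detection. FGFR2 lies at 0 or 3 counts left of the line and at 2.96 CPM or more right of it, while the GATA6 points run downward.

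GATA6, GATA4, HNF4A and PDGFRA did not all vary together across libraries, and SOX17 was not among the pairs compared. Over 15 libraries Pearson r of log2 CPM was -0.15 between GATA6 and GATA4, -0.65 between GATA6 and HNF4A and -0.63 between GATA6 and PDGFRA. Over the 10 libraries of higher detection the same values were 0.18, -0.47 and -0.44. GATA4 and HNF4A gave 0.14, GATA4 and PDGFRA 0.27 and HNF4A and PDGFRA 0.46 over 15 libraries. Over the 10 libraries these values were 0.051, 0.033 and 0.26. In vivo 1 and in vivo 3 had the highest in vivo levels of GATA4, SOX17 and HNF4A alike. Automatic 2, the highest library for HNF4A, had 0 counts of GATA4 and SOX17. FGFR1 and FGFR2 gave -0.10 over 15 and -0.46 over 10 libraries. These correlations are descriptions over libraries that share depth and detection, and no test was attached to them.

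Among 8615 genes with a mean of at least 5 CPM, those whose log2 CPM over the 15 libraries followed each of the 6 better measured genes most closely were identified. For GATA6 they were HNRNPU, CD2AP and SAP30L, with r of 0.92, 0.92 and 0.90, and r of 0.92, 0.84 and 0.85 over the 10 libraries of higher detection. For GATA4 they were EVL, DNM2 and FRMD6, with r of 0.89, 0.86 and 0.83. For HNF4A they were COG1, NDE1 and EEF2, with r of 0.92, 0.92 and 0.91. PDGFRA was followed by OSBPL1A, CRCP and IMP4, with r of 0.94, 0.93 and 0.93. FGFR1 was followed by CASP9, NCOA5 and RBM6, with r of 0.81, 0.79 and 0.78, which fell to 0.45, 0.49 and 0.58 over the 10 libraries of higher detection. FGFR2 was followed by TMEM250, MFN2 and PCGF3, with r of 0.98, 0.97 and 0.97, which fell to 0.77, 0.67 and 0.58.

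The first comparison asked whether automatic denudation left these genes at another level than manual denudation. Differential expression was tested with the quasi-likelihood test of edgeR on all 11578 genes that passed the filter, with p-values adjusted over all of them by the Benjamini-Hochberg method. In automatic against manual libraries 0 of the 6 genes tested had an adjusted p under 0.05, beside 0 of 11578 genes (0%). At an unadjusted p under 0.05 there were 0 of 6, beside 171 of all genes (1.48%), and DESeq2 and limma-voom with quality weights also called 0 of 6. The log2 differences were 0.50 ± 0.56 for GATA6, 0.17 ± 0.57 for PDGFRA, 1.89 ± 1.64 for HNF4A, -0.60 ± 1.67 for GATA4, 1.52 ± 1.75 for FGFR1 and -1.73 ± 1.92 for FGFR2 (SE). The 95% interval was 0.629-fold to 3.18-fold for GATA6 and 0.492-fold to 2.58-fold for PDGFRA. For FGFR1 it was 0.224-fold to 36.6-fold, so that large differences in either direction lie within it. For none of the 8 genes did the libraries of both groups separate, beside 0.665% of all genes whose groups did not overlap. GATA6 turned to -0.34 without the low-detection libraries.

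The second comparison set the in vitro libraries, automatic and manual with equal weight, against those collected in vivo. Of the 6 genes tested 0 had an adjusted p under 0.05, beside 2 of 11578 genes (0.0173%), and 0 had an unadjusted p under 0.05, beside 6.13% of all genes. The adjusted p by edgeR was at least 0.999 for each. Beside the GATA6 and PDGFRA values above, the log2 differences were -0.59 ± 1.41 for GATA4, -1.30 ± 1.33 for HNF4A, -1.22 ± 1.44 for FGFR1 and -0.48 ± 1.59 for FGFR2 (SE). The 95% interval ran from 0.0854-fold to 5.15-fold for GATA4 and from 0.0588-fold to 2.79-fold for HNF4A. In vitro and in vivo libraries overlapped for all 8 genes, beside 0.475% of all genes whose libraries did not.

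Among the 6 genes tested, HNF4A was the 1 gene with an unadjusted p under 0.05 in any of 22 other settings. With the low-detection libraries left out it differed by -2.23 in vitro against in vivo (unadjusted p = 0.0456, adjusted p = 0.590 by edgeR). By limma-voom with quality weights on all libraries the difference was -2.70 (unadjusted p = 0.0185, adjusted p = 0.289 by limma). For manual against in vivo the values were -2.79 (adjusted p = 0.635 by edgeR) and -4.14 (adjusted p = 0.413 by limma). None of these passed over all genes. Among the 10 libraries of higher detection, HNF4A lay at 8.46, 8.43 and 7.98 CPM in automatic, at 7.82, 6.0, 1.63 and 0 CPM in manual and at 37.3, 33.7 and 8.61 CPM in in vivo libraries. Each in vivo library stood above each in vitro one in this subset, a view chosen after its values were seen. Beside it, 4.31% of all genes did not overlap in either direction (499 genes, 242 of them higher in vitro).

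Each in vitro group was also set against in vivo, and these comparisons share the in vivo libraries. For automatic libraries the log2 differences were 0.18 ± 0.56 for GATA6, 0.49 ± 0.57 for PDGFRA, -0.89 ± 1.67 for GATA4, -0.36 ± 1.59 for HNF4A, -0.47 ± 1.72 for FGFR1 and -1.34 ± 1.90 for FGFR2 (SE). For manual libraries they were -0.32 ± 0.56 for GATA6, 0.32 ± 0.57 for PDGFRA, -0.29 ± 1.66 for GATA4, -2.25 ± 1.66 for HNF4A, -1.98 ± 1.78 for FGFR1 and 0.39 ± 1.87 for FGFR2 (SE). By edgeR 0 of 6 genes were called in either comparison, beside 0.0173% of all genes for automatic and 0% for manual against in vivo. At an unadjusted p under 0.05 there were 0 of 6, beside 5.36% of all genes for automatic and 3.39% for manual. No member separated the groups, beside 2.07% of all genes for automatic and 1.36% for manual. A p above the threshold does not show that the levels are alike.

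**Figure D3:**
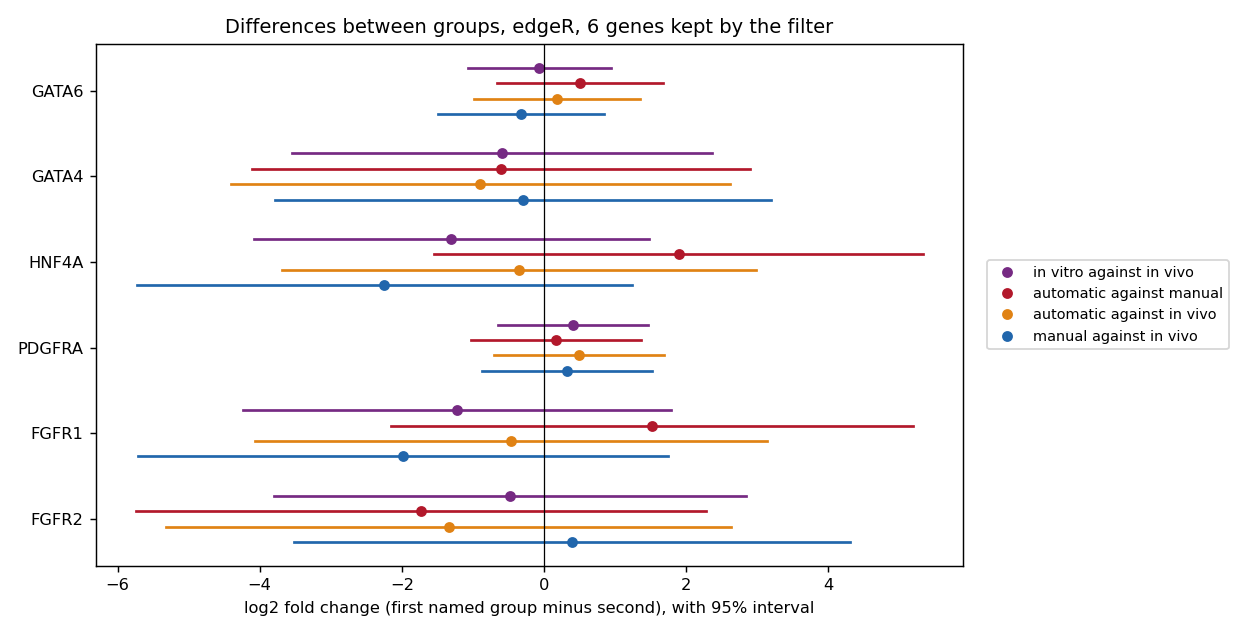
Log2 fold changes of the 6 genes kept by the filter in the 4 comparisons, with 95% intervals from the edgeR fit, each as the first named group minus the second. Every interval includes 0, and those of GATA6 and PDGFRA are the narrowest of the 6.

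GATA6 was also related to other lineage genes within each library. NANOG, the epiblast factor that opposes GATA6 in the mouse, lay at 49.0 ± 32.2 CPM in automatic, 54.5 ± 32.0 CPM in manual and 263 ± 110.5 CPM in in vivo libraries (SD, n = 5 each). In vitro against in vivo, NANOG differed by log2 -2.35 ± 0.49 (SE, unadjusted p = 0.000145, adjusted p = 0.191 by edgeR). All in vitro libraries (at most 105.8 CPM) lay below all in vivo libraries (at least 161 CPM). Beside it, 0.475% of all genes did not overlap in either direction. The log2 ratio of GATA6 to NANOG had a median of 1.86 in automatic libraries (0.34 to 5.48), 1.79 in manual libraries (1.25 to 2.68) and -0.64 in in vivo libraries (-1.27 to 1.56). For this ratio, unlike for NANOG alone, the ranges of the in vitro and in vivo libraries overlapped, and no test was made of it. Against POU5F1, a factor of pluripotency, the medians were -0.40, -0.32 and -0.42 in automatic, manual and in vivo libraries. Against SOX2, another pluripotency factor, the medians were 2.84, 3.19 and 4.20, so here the in vivo median was the highest, where against NANOG it was the lowest. Against the trophectoderm factors GATA3 and CDX2 they were 1.40, 1.72 and 1.70, and 5.17, 4.92 and 4.80 in the same groups. Of 18 epiblast genes, all kept, 10 lay above and 8 below 0 for in vitro against in vivo (median 0.27) and for automatic against manual (median 0.09), and 0 passed. CRIPTO, a NODAL co-receptor, differed by log2 -6.20 ± 1.45 in vitro against in vivo (SE, adjusted p = 0.275 by edgeR). Its in vitro libraries (at most 29.6 CPM) also all lay below the in vivo ones (at least 41.8 CPM). NODAL had 0 counts in automatic libraries and 58 counts in the manual group, all in manual 1 (adjusted p above 0.999 for automatic against manual by edgeR). The in vivo group held 884 NODAL counts, in 4 of its 5 libraries.

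Other genes of the hypoblast and of endoderm, 40 in number and all in the table, were counted next. For in vitro against in vivo 29 passed the filter, 16 above and 13 below 0 on the log2 scale, with a median of 0.18, beside 48.2% above 0 and a median of -0.04 over all genes, and 0 passed the test. For automatic against manual 16 lay above and 13 below 0, with a median of 0.07, beside -0.05 over all genes, and again 0 passed. CER1 and AFP had 0 counts in every library. LRP2, an endocytic receptor of the visceral endoderm and trophectoderm, passed for automatic against in vivo. It lay at 637, 612, 1003.5, 675 and 611 CPM in automatic libraries and at 2316, 2258, 2780, 4114 and 3052 CPM in in vivo libraries. All automatic libraries were lower, beside 2.07% of all genes whose groups did not overlap in either direction. The log2 difference was -2.04 ± 0.31 (SE, adjusted p = 0.0294 by edgeR). The call was lost in 9 of the 15 fits without 1 library, those without automatic 1, 2, 4 or 5, manual 4 or 5, or in vivo 1, 4 or 5, with an adjusted p of up to 0.161 by edgeR, while the log2 difference stayed between -2.19 and -1.83. It was also lost without the low-detection libraries and under scaling by library totals, at -1.84 and -1.85. LRP2 differed by -1.26 ± 0.30 for automatic against manual (unadjusted p = 0.000507, adjusted p above 0.999 by edgeR) and by -1.41 ± 0.25 in vitro against in vivo (SE, adjusted p = 0.0676 by edgeR). APOA1, an apolipoprotein of the yolk sac and liver, differed by -1.25 ± 0.58 for automatic against manual (SE, unadjusted p = 0.0442).

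LRP2 is also a trophectoderm gene, and trophectoderm genes are given beside it. Of 14 such genes 11 were kept, 3 above and 8 below 0 for automatic against in vivo (median -1.22) and for in vitro against in vivo (median -0.91), and 2 above and 9 below 0 for automatic against manual (median -0.40), with 0 past any test. Their summed level was 4285 to 13979 CPM in automatic, 8029 to 34022 CPM in manual and 12635 to 30801 CPM in in vivo libraries. KRT18 and KRT19 differed by log2 -0.91 ± 0.29 and -1.84 ± 0.55 in vitro against in vivo, and by -1.17 ± 0.35 and -1.94 ± 0.68 for automatic against manual (SE), with adjusted p-values of at least 0.534 by edgeR. The part of the trophectoderm in the LRP2 value was not tested.

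NID2, a basement membrane glycoprotein of the nidogen family, was the hypoblast list gene with the next smallest p for in vitro against in vivo. It lay at 32.5, 85.5, 55.1, 145 and 33.8 CPM in automatic libraries, at 25.1, 34.1, 60.6, 47.1 and 40.8 CPM in manual libraries and at 13.8, 15.2, 18.1, 12.0 and 6.15 CPM in in vivo libraries. Every one of the 10 in vitro values exceeded every in vivo value. Beside it, 0.475% of all genes did not overlap in either direction (55 genes, 23 of them higher in vitro). For NID2 the log2 difference was 2.05 ± 0.61 (SE, unadjusted p = 0.00315), and it did not pass over all genes (adjusted p = 0.534 by edgeR). Without the low-detection libraries it was 1.73 (adjusted p = 0.350 by edgeR). DAB2, of the same list, had a similar p and went the other way, by log2 -0.95 ± 0.28 (SE, unadjusted p = 0.00341, adjusted p = 0.534 by edgeR). At an unadjusted p under 0.05, 1 of the 29 list genes kept lay above 0 and 2 below, beside 6.13% of all genes.

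PDGFA, a ligand of PDGFRA, lay at 32.9, 108, 23.1, 68.7 and 25.8 CPM in automatic libraries, at 45.9, 64.5, 7.20, 28.8 and 40.9 CPM in manual libraries and at 14.9, 0, 15.4, 2.28 and 6.63 CPM in in vivo libraries. Manual 3 overlapped the in vivo libraries, and the other 9 in vitro libraries lay above them. The log2 difference of in vitro from in vivo was 2.49 ± 1.01 (SE, unadjusted p = 0.0235, adjusted p = 0.711 by edgeR), and 1.24 without the low-detection libraries (adjusted p = 0.621). PDGFB, a ligand of the same receptor family, differed by 0.59 ± 1.87 (SE). Of 5 PDGF ligands and receptors other than PDGFRA, these 2 passed the filter, 0 passed the test and the median was 1.54 for in vitro against in vivo and 0.59 for automatic against manual.

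Stromal cells also express NID2 and PDGFA, so their markers are given here. The summed level of 15 stromal and fibroblast genes was 77.2 to 234 CPM in automatic, 48.7 to 546 CPM in manual and 1.32 to 103 CPM in in vivo libraries. Of its 8 genes kept, 7 lay above 0 for in vitro against in vivo, with a median of 2.20, and 0 passed the test. COL1A2 had counts in all 15 libraries, COL1A1 in 3 of each group, and THY1 in 3 automatic, 3 manual and 2 in vivo libraries. LUM had counts in 5 automatic, 4 manual and 2 in vivo libraries, and differed by log2 8.39 ± 1.93 in vitro against in vivo (SE, adjusted p = 0.275 by edgeR). POSTN had counts in 5 automatic and 4 manual libraries and COL3A1 in 1 automatic and 3 manual libraries, both with 0 in vivo, and PRRX1 was at 0 in all 15. The part of these transcripts in the NID2 and PDGFA values was not tested. Cumulus and granulosa genes, 14 in number, summed to 2.53 to 20.8 CPM in automatic, 12.4 to 111 CPM in manual and 19.6 to 45.2 CPM in in vivo libraries. Of its 5 genes kept 1 lay above 0 for in vitro against in vivo. FSHR and CYP19A1 had counts in all 15 libraries, up to 42.7 and 52.9 CPM, and FOXL2 and TNFAIP2 were at 0 throughout. The 8 oviduct and uterine genes summed to 13.0 to 45.8, 10.6 to 153 and 21.8 to 79.96 CPM, and the 9 leukocyte genes to 1.17 to 10.2, 0.726 to 20.3 and 0 to 6.95 CPM in automatic, manual and in vivo libraries. PTPRC, the pan-leukocyte marker, was at 0 in every library, while CD68 and LYZ had counts in 11 libraries each and CD3E in 9. CD68 differed by log2 4.25 ± 1.91 (SE, unadjusted p = 0.0383, adjusted p = 0.792 by edgeR) and the epithelial gene WFDC2 by -8.17 ± 1.72 (SE, adjusted p = 0.191 by edgeR) in vitro against in vivo.

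Of 17 FGF ligands other than FGF4, 7 had 0 counts in every library: FGF1, FGF3, FGF6, FGF7, FGF10, FGF17 and FGF20. For in vitro against in vivo 5 passed the filter, 2 above and 3 below 0, with a median of -1.33, and 0 passed the test. For automatic against manual 1 lay above and 4 below 0, with a median of -0.37. FGF21, a hormone-like FGF, had 60, 0, 120, 0 and 52 counts in automatic libraries and 36, 0, 154, 97 and 216 counts in manual libraries. It had 0 counts in all 5 in vivo libraries. Against a floor of 3 counts over the in vivo group, the in vitro mean was at least 131-fold higher, a bound that covers counting error only and not the spread between libraries. The difference did not pass over all genes (unadjusted p = 0.00302, adjusted p = 0.534 by edgeR). The 3 in vitro libraries at 0 were the low-detection ones.

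FGF2, which signals through FGFR1 and others, lay at 1.55 CPM or less in 12 libraries and at 14.4 CPM in automatic 4, 3.20 CPM in manual 4 and 35.1 CPM in in vivo 2. FGF19, another hormone-like ligand, reached 16.0 CPM in manual 2 and 46.2 CPM in in vivo 4. FGF9 reached 4.89 CPM in in vivo 4, and had counts in 7 of 10 in vitro libraries. Of these 6 high values 5 were in low-detection libraries. The log2 differences of in vitro from in vivo were -2.17 ± 1.43 for FGF2, -1.79 ± 2.01 for FGF19 and 0.31 ± 1.78 for FGF9 (SE). Without the low-detection libraries FGF2 was at -0.19 and FGF19 turned to 2.06. FGF9 was then at 5.11 (unadjusted p = 0.0314, adjusted p = 0.570 by edgeR).

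Receptors and co-receptors other than FGFR1 and FGFR2 gave 12 genes kept of 16, 4 above and 8 below 0 for in vitro against in vivo, with a median of -0.48 and 0 past the test. For automatic against manual the split was the same, with a median of -0.26. FGFR4 had counts in all 15 libraries, at 72.1 ± 67.4 CPM in automatic, 64.5 ± 43.9 CPM in manual and 96.4 ± 47.5 CPM in in vivo libraries (SD, n = 5 each). Its low values were 9.57 and 0.497 CPM in automatic 2 and automatic 4, both low-detection libraries. FGFR4, FGFR3 and the decoy receptor FGFRL1 differed by log2 -0.50 ± 0.77, -0.46 ± 1.34 and 0.04 ± 1.63 between in vitro and in vivo libraries (SE). KLB, the co-receptor of FGF19 and FGF21, stood at 180 CPM in in vivo 4 and at most 14.6 CPM elsewhere, with a log2 difference of -3.98 ± 1.82 (SE, adjusted p = 0.805 by edgeR) that was -0.52 without the low-detection libraries. KL, the co-receptor of FGF23, had 0 counts in every library.

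GPC4, a glypican that carries heparan sulphate, lay at 0 in 6 of 10 in vitro libraries and at 6.09, 0, 3.56, 75.2 and 24.5 CPM in in vivo libraries. It reached 2.68 CPM in automatic 3 and 1.29 CPM in manual 1, and differed by log2 -5.74 ± 1.81 (SE, unadjusted p = 0.00517, adjusted p = 0.553 by edgeR). The syndecans SDC1, SDC2, SDC3 and SDC4 differed by 0.68, -1.48, -2.07 and -0.19, GPC1 by 0.83 and HSPG2 by -0.83 on the log2 scale, and GPC3 was not kept. FGFBP1, which releases FGFs from matrix, was the receptor list gene with a small p for automatic against manual (log2 6.25 ± 2.42, unadjusted p = 0.0182, adjusted p above 0.999 by edgeR). It stood at 49.7 CPM in automatic 2 and at most 1.69 CPM elsewhere. Of 13 enzymes of heparan sulphate synthesis, on which FGF binding depends, 11 were kept, 4 above and 7 below 0 for in vitro against in vivo (median -0.49) and 2 above and 9 below 0 for automatic against manual (median -0.46), and 0 passed either test.

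**Figure D4:**
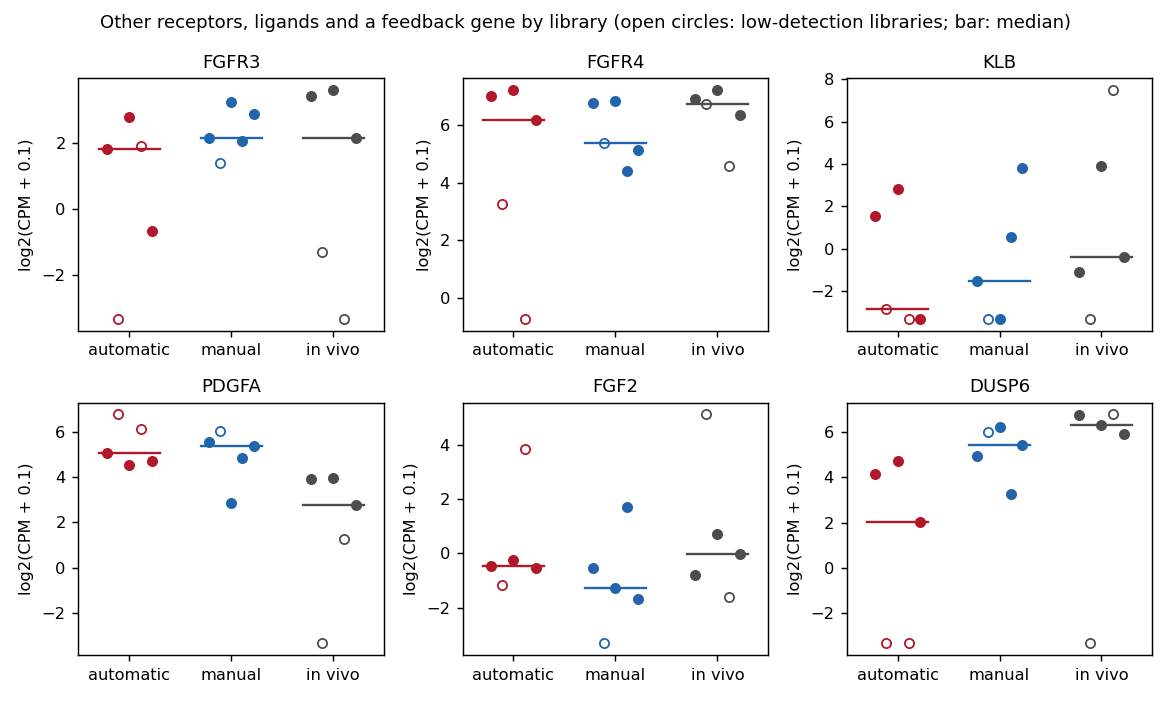
Level of FGFR3, FGFR4, KLB, PDGFA, FGF2 and DUSP6 in every library as log2(CPM + 0.1), with automatic, manual and in vivo libraries from left to right. Open circles are low-detection libraries and the bar is the group median. The in vivo PDGFA median is below both in vitro medians, and DUSP6 is at 0 in 3 low-detection libraries.

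Downstream of the receptors, the 26 genes of signal transduction (adaptors, RAS, RAF, MEK, ERK and related genes) all passed the filter. For in vitro against in vivo 12 lay above and 14 below 0, with a median of -0.23. For automatic against manual 14 lay above and 12 below 0, with a median of 0.04, and 0 passed either test. Of 22 feedback and target genes 18 were kept, 5 above and 13 below 0 for in vitro against in vivo (median -0.42) and 11 above and 7 below 0 for automatic against manual (median 0.22), with 0 past either test. Over all genes 48.2% lay above 0 for in vitro against in vivo and 47.1% for automatic against manual.

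DUSP6, an ERK phosphatase induced by FGF signalling, lay at 17.5, 0, 25.8, 0 and 4.01 CPM in automatic libraries, at 30.2, 62.5, 74.1, 9.54 and 42.1 CPM in manual libraries and at 105, 0, 77.7, 109 and 59.4 CPM in in vivo libraries. The 3 libraries at 0 were of low detection. The log2 difference of in vitro from in vivo was -1.79 ± 1.20 (SE, adjusted p = 0.990 by edgeR), and -1.70 without the low-detection libraries (unadjusted p = 0.0113, adjusted p = 0.476). SPRY2 and SPRY4, inhibitors of receptor signalling, differed by -0.29 ± 0.92 and -0.48 ± 1.35, and the FGF-responsive factors ETV4 and ETV5 by -0.56 ± 1.58 and -0.34 ± 1.73 (SE).

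FOS, an immediate early gene of ERK signalling, lay at 29.3, 12.9, 29.5, 19.3 and 23.1 CPM in automatic libraries, at 18.9, 98.4, 54.2, 32.8 and 16.4 CPM in manual libraries and at 72.4, 293, 101.9, 14.4 and 36.0 CPM in in vivo libraries. The groups overlapped, with in vivo 4 among the lowest. The log2 difference of in vitro from in vivo was -1.70 ± 0.61 (SE, unadjusted p = 0.0115, adjusted p = 0.618 by edgeR). IL17RD, an FGF receptor antagonist, had counts in 7 of 10 in vitro libraries and in 1 in vivo library, in vivo 3, at 1.39 CPM. It differed by 4.87 ± 2.31 (SE, unadjusted p = 0.0488, adjusted p = 0.806 by edgeR).

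**Figure D5:**
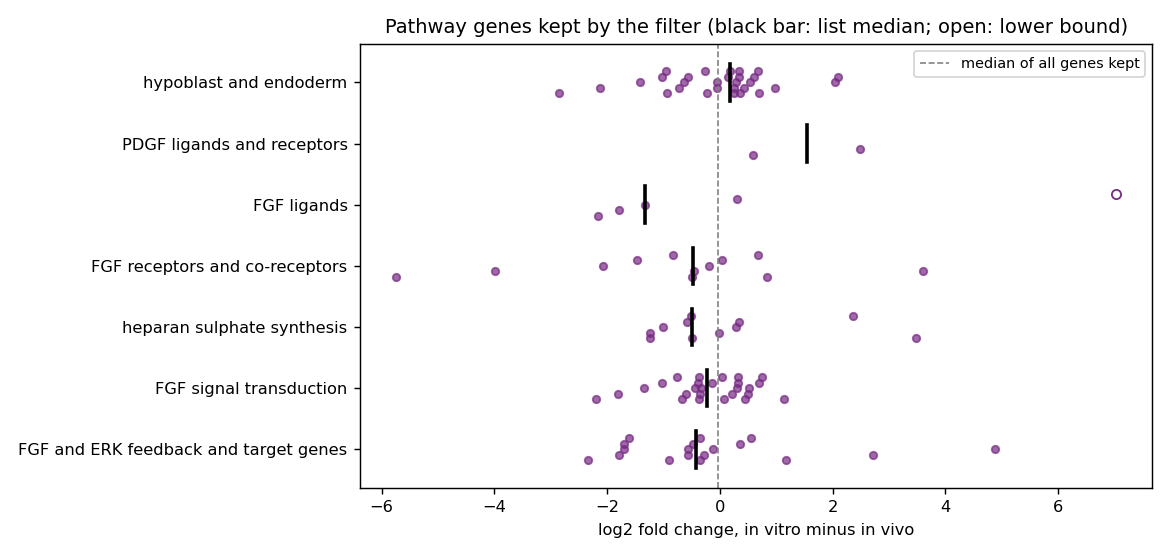
Log2 fold changes of in vitro against in vivo for the genes kept of 7 lists, 1 point per gene. The black bar is the list's median, the dashed line the median of all genes kept (-0.04), and the open circle is FGF21 at its lower bound of 7.03 against 3 counts. List medians run from -1.33 for the FGF ligands to 1.54 for the 2 PDGF ligands.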

How the data were processed

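The authors deposited 1 table of counts per gene for 15 libraries, in whole numbers with totals that differ between libraries. Per the submitters' processing notes the tools were FastQC, fastp and kallisto, with no role or version given. Because kallisto estimates counts, the deposited values were treated as estimated counts; rounding changed 0 values. How molecular identifiers were handled, and with which transcript set and build reads were matched, is not given in the sources used here, and no coordinates or sequences are printed. Reads shared between close paralogs, such as the FGF receptors, are divided by such estimation, so these values are less certain. Per the labels' protocols, libraries came from a stranded mRNA kit. A line without a gene name (1 in number) was left out. Of 17259 symbols 17059 were in the ARS-UCD2.0 RefSeq table, used for names alone. Totals were 17.96 to 41.97 M counts, and replicates differed by more than sampling noise in every pair (lowest chi-square over its degrees of freedom 191).

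Columns were assigned by the library names in the labels. Tests used R 4.3.3 with edgeR 4.0.16 (TMM, filterByExpr, robust glmQLFit, glmQLFTest), all 15 libraries in 1 fit with a mean per group, and Benjamini-Hochberg adjustment over the 11578 genes kept at a threshold of 0.05. The standard error is the absolute log2 fold change over the square root of F. CPM uses TMM-scaled totals. Correlations with the number of genes detected, and between pairs of the genes described here, use log2(CPM + 0.1). The search for closest neighbours uses log2 CPM with a prior count of 2. Genes not kept, and the ratio of receptors, were compared by exact two-sided permutation (scipy 1.17.1). The procedure was also run on simulated data with planted changes and 1 fixed spread for all genes. That run does not show how it performs at the spread and low counts of the genes described here. Other settings were scaling by totals, DESeq2 1.42.0, voom with quality weights (limma 3.58.1), no filter, a filter of 1 CPM in 5 libraries, the replicate number as a block, and leaving out libraries.

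The 8 genes, the 13 gene lists and the limit of 9000 genes for a low-detection library were chosen with earlier results of these data known. From each list the text names genes that were called, otherwise up to 2 with the smallest unadjusted p where under 0.05 (in vitro against in vivo, automatic against manual). It also names FGF ligands, receptors and PDGF genes with a mean of at least 1 CPM, SPRY2, SPRY4, DUSP6, ETV4 and ETV5, and the 3 closest neighbours of each member. DAB2 was added outside this rule, as its p was close to that of NID2. For stromal, cumulus, oviduct and leukocyte cells, further markers are given by the number of libraries with counts.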

Additional observations from a re-analysis of the deposited data

Results flagged for a closer look

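Within each group of 5 libraries, the highest and lowest level of a gene was set against Dixon's 95% limit. The limit is 0.71 of the group's range as the gap to the next library. This was done for the 8 hypoblast and FGF genes and 22 other named genes. Further named genes, KRT18, CRIPTO and NODAL among them, were not included. For normally distributed values chance passes this limit in about 1 in 20 groups, and that rate need not hold for CPM. It was passed in 7 of 24 groups for the 8 hypoblast and FGF genes, and in 16 of 66 groups for 22 other genes; CPM values with many zeros pass it readily.

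Among the 8 genes the library standing apart was always the highest. GATA6 reached 633.5 CPM in automatic 4, a low-detection library, against 213 CPM in the next automatic library. GATA4 reached 1.40 CPM in automatic 3, with 58 counts. SOX17 reached 0.217 CPM in automatic 3 and 0.0632 CPM in manual 3, the single library with counts in its group. HNF4A reached 38.0 CPM in automatic 2, a low-detection library, against 8.46 CPM in the next. FGF4 reached 0.123 CPM in in vivo 3, and FGFR2 44.5 CPM in manual 3 against 8.26 CPM in the next.

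Among the other genes, LRP2 reached 1003.5 CPM in automatic 3. FGF2 reached 14.4 CPM in automatic 4, 3.20 CPM in manual 4 and 35.1 CPM in in vivo 2. FGF9 reached 4.89 CPM in in vivo 4, and FGF19 16.0 CPM in manual 2 and 46.2 CPM in in vivo 4. KLB reached 13.9 CPM in manual 5 and 180.01 CPM in in vivo 4, and GPC4 2.68 CPM in automatic 3 and 1.29 CPM in manual 1. FGFBP1 reached 49.7 CPM in automatic 2 and 0.596 CPM in manual 4, SPRY4 11.5 CPM in manual 1, ETV5 9.57 CPM in manual 5 and IL17RD 1.39 CPM in in vivo 3. No cause of these values was tested.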

How the results depend on the processing

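No member was called under any setting, but several directions turned. In vitro against in vivo, some named genes that missed the threshold passed it elsewhere: LRP2, NID2, FGF21, NANOG, LUM, POSTN and WFDC2 by DESeq2 (adjusted p up to 0.0162), LRP2, FGF21, GPC4, NANOG, CRIPTO, KRT19 and KRT18 by voom with quality weights (adjusted p up to 0.0383 by limma), and LRP2 with no filter, with the replicate block and without manual 3 (adjusted p = 0.0377, 0.0033 and 0.0326 by edgeR). The cause was not tested for any of these changes. Genes called for in vitro against in vivo (2 of 11578) numbered 0 by scaling to totals, 86 by DESeq2, 107 by voom with quality weights, 8 with the replicate block, 7 without the low-detection libraries and 0 to 7 without 1 library. For automatic against manual (0) they numbered 9, 1 and 1 by DESeq2, by voom and without the low-detection libraries, and 0 to 0 without 1 library. For automatic against in vivo (2) they numbered 0 by totals, 87 by DESeq2, 95 by voom, 1 with no filter, 7 with the block, 9 without the low-detection libraries and 0 to 4 without 1 library. For manual against in vivo (0) they numbered 44, 2, 1 and 3 by DESeq2, by voom, with the block and without the low-detection libraries, and 0 to 0 without 1 library. By totals GATA6 turned to 0.24 in vitro against in vivo and to 0.0056 for manual compared with in vivo. With the low-detection libraries left out GATA6 was at 0.18 in vitro against in vivo, -0.34 for automatic against manual and 0.35 for manual against in vivo, FGFR1 at 0.084 in vitro against in vivo and 0.53 for automatic against in vivo, FGFR2 at -0.03 for manual against in vivo, FGF19 at 2.06 in vitro against in vivo, and the FGFR2 to FGFR1 ratio at -0.67 for manual against in vivo. By voom GATA6 was at -0.48, -0.41 and 0.072 for automatic against manual, automatic against in vivo and manual against in vivo, FGFR1 at 0.86 in vitro and 1.78 for automatic against in vivo, FGFR2 at -0.44 for manual against in vivo, FGF19 at 2.46 and ETV5 at 0.56 in vitro against in vivo. With the block GATA6 was at -0.077 and FGFR1 at 1.04 for automatic against in vivo, GATA4 at 0.65 for manual against in vivo, and FGFR1 at 0.13, FGFR2 at 0.017, FGF19 at 1.95, FGFR3 at 0.071 and ETV4 at 0.36 in vitro against in vivo. With group means taken off, same-numbered libraries correlated at 0.00137 to 0.38 over 15 pairs, 8 above 0.1. Of 15 libraries 8 correlated best with a library of their own number, and number 2 was a low-detection library in every group. Whether same-numbered libraries share a source was not tested, and the main fit leaves the number out.

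Fits without 1 library, as lowest and highest, crossed 0 for GATA6 (-0.39 to 0.38 in vitro against in vivo, -0.15 to 0.78 for automatic against manual, -0.47 to 0.61 and -0.51 to 0.15 for automatic and manual against in vivo), GATA4 (-0.60 to 0.25 for manual against in vivo), HNF4A (-1.37 to 0.24 for automatic against in vivo), PDGFRA (-0.060 to 0.39 for automatic against manual), FGFR1 (-1.59 to 0.44 in vitro and -0.80 to 1.22 for automatic against in vivo) and FGFR2 (-1.17 to 0.13 in vitro and -0.997 to 0.99 for manual against in vivo). The FGFR2 to FGFR1 ratio ran from -2.96 to 0.48 in vitro and from -0.28 to 3.16 for manual against in vivo, and from -6.50 to -3.98 for automatic against manual and -5.65 to -2.21 for automatic against in vivo. In vitro against in vivo, ranges crossed 0 for FGF2 (-3.41 to 1.07), FGF9 (-0.15 to 4.87), FGF19 (-3.24 to 3.50), FGFR3 (-0.80 to 0.051), FGFRL1 (-0.57 to 0.98), SDC4 (-0.30 to 0.080), SPRY2 (-0.55 to 0.063), SPRY4 (-1.41 to 0.21), ETV5 (-1.03 to 0.68) and CDX2 (-1.03 to 0.058), and NODAL ran from -6.79 to 0 for automatic against manual. The CPM difference of SOX17 ran from -0.0126 to 0.0435 for automatic against manual, and that of FGF4 from -0.0306 to 0 against in vivo. With no filter FGF4 differed by -2.85 in vitro against in vivo (unadjusted p = 0.0267, adjusted p = 0.391 by edgeR). Leaving out libraries at 0 for both receptors, chosen after seeing the data, gave ratio differences of -1.30, -6.27, -4.08 and 2.18 in the 4 comparisons, and group means of CPM on unscaled totals were also added then. Counts of a few per library limit FGF4, SOX17 and GATA4.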
